A study of Homo sapiens with 58 samples.

Results

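The matrix metalloproteinases (MMP), the ADAMTS proteases and the tissue inhibitors of metalloproteinases (TIMP) were examined as 1 group of genes in 58 human lines that the labels class as breast cancer. Members were all genes of the array's annotation named MMP, ADAMTS or TIMP with a plain number. The rule found 42 of 19798 genes, of which 21 were MMP, 17 ADAMTS and 4 TIMP genes. Each line was grown untreated and measured once, on 1 custom Affymetrix array, and levels are log2 intensities after robust multiarray averaging (RMA). The labels put every line in the same class and give no subtype, so the lines were compared by name and by the measured level of 4 genes.

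Some lines share an origin, which is textbook knowledge and not in the labels. EFM192A, EFM192B and EFM192C come from 1 patient, MDAMB435S, M4A4 and NM2C5 from the MDAMB435 line, AU565 and SKBR3 from 1 patient, as do MB157 and MDAMB157 and also VP229 and VP267, and HMT3522S1 and HMT3522T42 from 1 culture. These 14 lines form 6 units, and with the other lines there are 50 units of origin. The MDAMB435 lines and MT3 have been reported not to come from breast tumours, and MCF12A and HMT3522S1 are among the lines known as non-tumorigenic breast lines. The labels do not mark such lines, and others may be present. The spread within the 6 units, with 8 degrees of freedom, was the only error estimate close to replication.

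MMPs are zinc endopeptidases that together cut nearly every protein of the extracellular matrix. Most are secreted as inactive proenzymes, while the membrane-type MMPs stay at the cell surface and can activate others. ADAMTS proteases carry thrombospondin repeats and cleave proteoglycans, procollagens or von Willebrand factor. TIMPs bind the active site and block these enzymes. In breast tumours much of the MMP transcript is known to come from stromal fibroblasts, and AP-1 transcription factors are the classical activators of the collagenase and stromelysin genes.

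Promoter sequences are shown for 3 members: MMP7, which holds the AP-1 site, and ADAMTS6 and TIMP1, the pair of members with the highest Spearman rho over units of origin. RefSeq (GRCh38.p14) promoter entries matched 24 of the 42 members, and only these were searched. MMP1, MMP2, MMP3, MMP12 and MMP13 were not among them, so their promoters were not searched. Only exact letters were counted, so variant AP-1 sites would be missed. The 280 bases run 5′ to 3′ from 250 bases before the annotated start to 30 after it. The AP-1 site TGAGTCA (either strand) and the cyclic AMP response element TGACGTCA (its own reverse complement, searched after the ADAMTS6 sequence was seen) are in capitals.
MMP7, chr11:102530718-102530997, minus strand: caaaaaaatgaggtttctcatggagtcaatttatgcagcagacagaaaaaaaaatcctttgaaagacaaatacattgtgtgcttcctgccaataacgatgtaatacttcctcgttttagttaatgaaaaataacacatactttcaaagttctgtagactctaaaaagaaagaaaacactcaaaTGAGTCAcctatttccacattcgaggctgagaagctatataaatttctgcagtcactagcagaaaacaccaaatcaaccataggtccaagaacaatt
ADAMTS6, chr5:65481891-65482170, minus strand: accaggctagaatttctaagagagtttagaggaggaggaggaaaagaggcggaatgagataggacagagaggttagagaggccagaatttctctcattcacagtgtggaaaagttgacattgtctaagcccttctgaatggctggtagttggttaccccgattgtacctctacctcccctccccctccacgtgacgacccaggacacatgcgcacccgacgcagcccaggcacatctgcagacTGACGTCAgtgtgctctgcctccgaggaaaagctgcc
TIMP1, chrX:47582186-47582465, plus strand: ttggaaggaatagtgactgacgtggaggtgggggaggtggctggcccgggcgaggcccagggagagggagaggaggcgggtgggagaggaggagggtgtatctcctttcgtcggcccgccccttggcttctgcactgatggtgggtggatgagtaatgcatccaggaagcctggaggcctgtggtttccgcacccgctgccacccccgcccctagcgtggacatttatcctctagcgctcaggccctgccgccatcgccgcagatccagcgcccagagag
The AP-1 letters in MMP7 begin 67 bases before the start, and the TATAAA letters begin 30 bases before it. The response element letters in ADAMTS6 begin 7 bases before the start. Over the full window of 300 bases, TGAGTCA was in 1 of 24 members (4.17%) and in 4.95% of 35116 promoters. TGACGTCA was likewise in 1 of 24 members, beside 1.85% of all promoters. TATAAA on the gene's strand was in 5 of 10 MMP promoters (MMP7, MMP8, MMP20, MMP21 and MMP26), in 0 of 11 ADAMTS and 0 of 3 TIMP promoters, beside 7.33% of all. These matches describe letters only, and none of the levels below was tested against them.

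A level was called above background where it exceeded 5.59, the 95th percentile of 612 probe sets for viral genes, whose median was 3.31. By this limit 36 of 42 members were above background in at least 3 lines, 15 in at least 29 lines and 5 in all 58 (MMP14, MMP15, MMP17, MMP24 and TIMP2). MMP8 passed in MDAMB231 alone (5.72) and MMP26 in ZR7530 alone (6.25). MMP20, enamelysin of the forming tooth, passed in HCC38 alone, at 9.53, with the next line, MB157, at 4.57. ADAMTS20, MMP21 and MMP27 passed in 0 lines, with highest levels of 3.72, 3.78 and 4.81. Probes differ in brightness, so levels are compared between lines for 1 gene and never between genes.

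**Figure D1:**
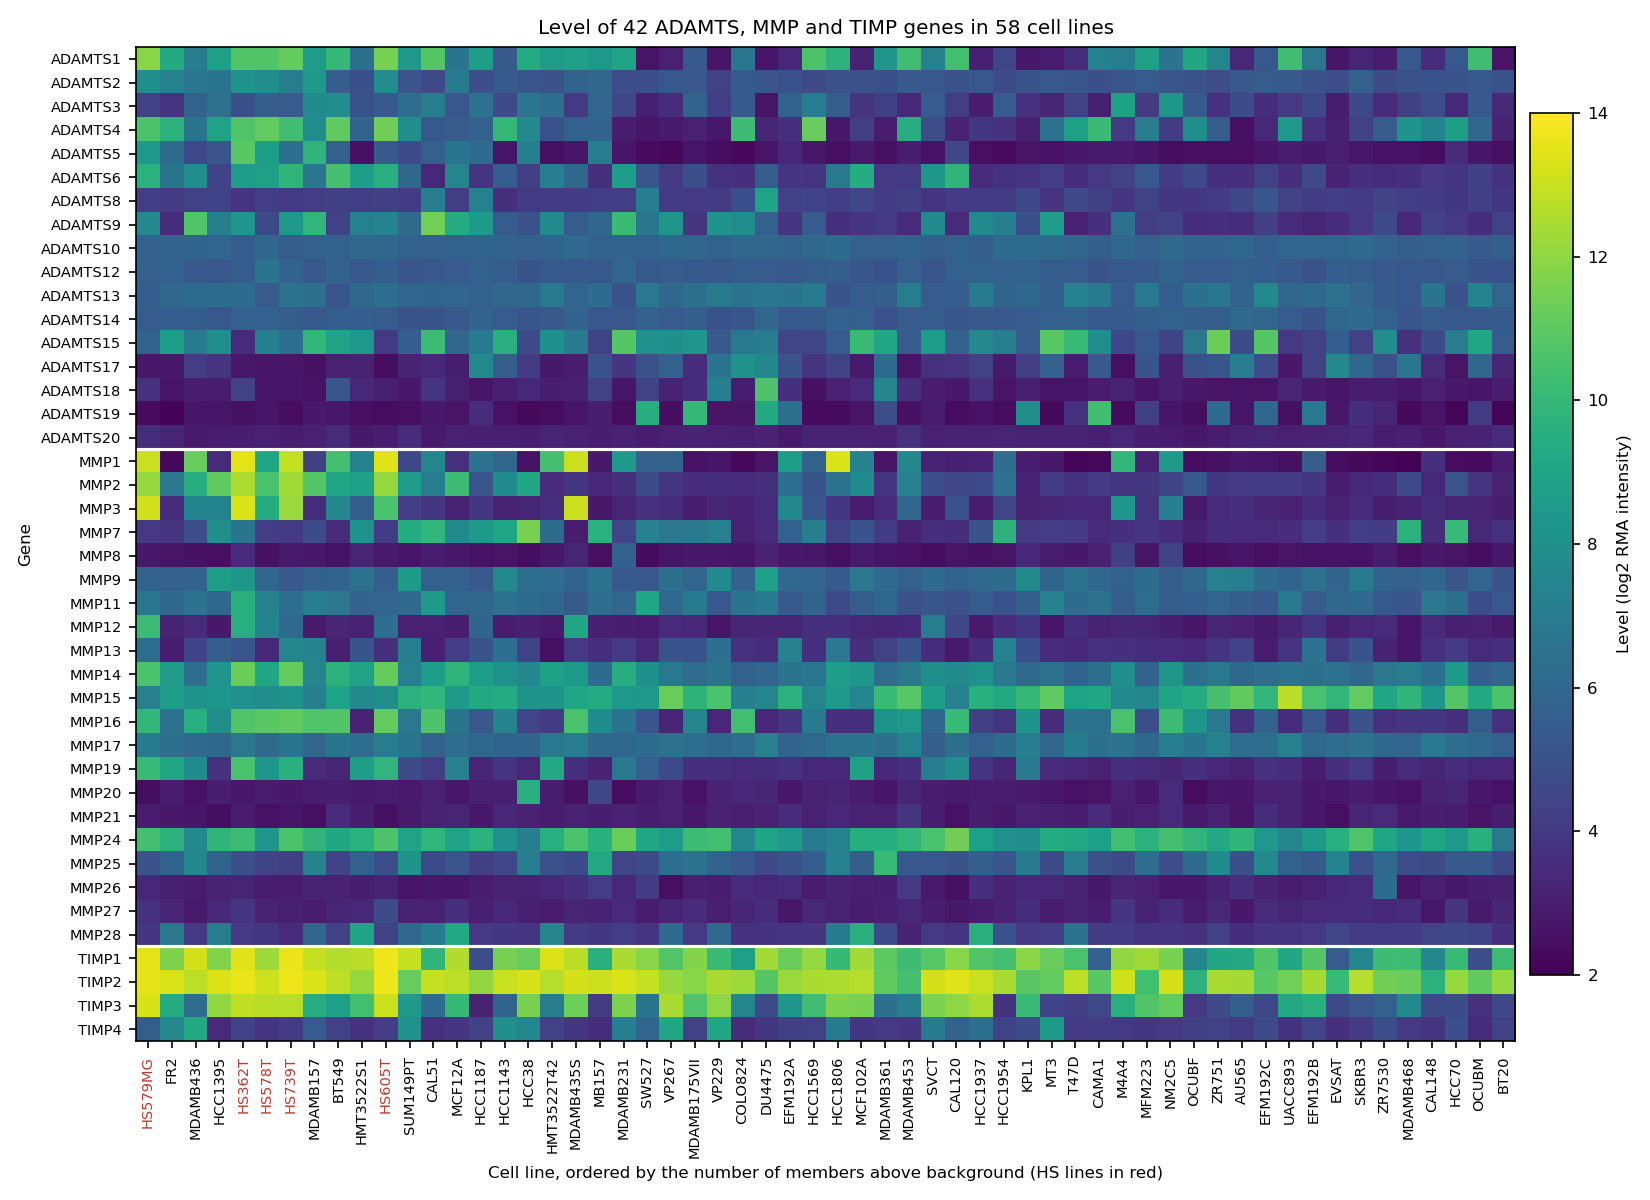
Level of each of the 42 members (vertical axis) in each of the 58 lines (horizontal axis), as log2 RMA intensity on the colour scale, with lines ordered by the number of members above background. The 5 HS lines, in red, hold 23 to 26 such members and BT20, at the right end, 8; white lines part the ADAMTS, MMP and TIMP genes.

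Arrays were alike in overall level, with medians from 5.37 to 5.58, and relative log expression had interquartile ranges of 0.45 to 0.64. The levels of other cell types' markers bear on 5 lines, HS362T, HS579MG, HS605T, HS739T and HS578T (below, the HS lines). All 9 measured fibroblast markers were above background in each HS line, with a mean level from 12.66 to 12.87, while the other 53 lines had 0 to 8 of them (median 2) and a mean from 3.76 to 10.58. FR2 came nearest by mean level, with 8 markers and a mean of 10.58. MDAMB453 also had 8 fibroblast markers above background, at a lower mean, together with all 9 measured epithelial markers (mean 11.32). Of 9 measured epithelial markers the HS lines had 3 to 5 above background, and the E-cadherin gene CDH1 was at or below 5.61 in them, where the other lines had 3 to 9 (median 9). Of 9 measured blood markers the HS lines had 0 to 3 above background and the other lines 0 to 4. PTPRC, CD3E and ITGAM were at background in the HS lines, while LAPTM5 and HCLS1 (8.54) were above it in HS362T and CD14 was above it in 4 HS lines (6.22 to 6.77). Of 8 endothelial markers the HS lines had 1 to 4 above background, among them EMCN at 10.29 in HS362T and TEK at 9.96 in HS579MG, and the other lines had 0 to 3. The share of these cell identities in the results below was not tested.

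The number of members above background differed widely by line. The HS lines had 23 to 26 (median 24) and the other 53 lines 8 to 25 (median 17), so the 2 ranges overlap. HS579MG was highest with 26, FR2 and MDAMB436 followed with 25, and HCC1395 and MDAMB157 had 24. BT20 was lowest, with 8. For 17 of 42 members the highest of all lines was an HS line (10 MMP, 4 ADAMTS and 3 TIMP genes), beside 7.40% of all 19798 genes. The 17 include MMP27, which stayed at background in every line. HS362T alone was highest for 7: ADAMTS5, MMP1, MMP2, MMP3, MMP11, MMP14 and MMP19.

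The interstitial collagenase MMP1, which cuts fibrillar collagen, was at 2.12 in the lowest line (MDAMB468), at a median of 3.56 and at 13.50 in the highest (HS362T). It was above background in 24 lines. HS605T (13.46), HCC1806 (13.33), HS579MG (13.06) and MDAMB435S (13.05) were close behind, so the top levels were shared by HS lines and others. Of 9 fibroblast markers MDAMB435S had 4 above background (mean 6.58), among them COL1A2 (11.69) and POSTN (10.59), and HCC1806 had 3 (mean 5.12). HS578T was the lowest HS line at 9.08. In the other 53 lines the median was 3.15. Collagenase-3, MMP13, was above background in 11 lines and ran from 2.49 (HMT3522T42) through a median of 3.85 to 7.54 (HS739T), with MDAMB157 at 7.37 and EFM192A at 7.31.

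Stromelysin-1, MMP3, which activates other pro-MMPs, ran from 2.82 (MB157) through a median of 3.54 to 13.31 (HS362T). HS579MG (13.16) and MDAMB435S (13.03) followed, and 14 lines were above background. Of these 14 lines 13 also had MMP1 above background (92.9%), the exception being HCC1395, while 54.2% of the MMP1 lines had MMP3. Stromelysin-3, MMP11, first known from the stroma of breast tumours, ran from 4.66 (HCC1806) through 6.03 to 9.52 (HS362T), with SW527 at 9.06 and CAL51 at 8.50, and was above background in 39 lines. The macrophage elastase MMP12 ran from 2.66 (MT3) through 3.25 to 10.25 (HS579MG) and was above background in 8 lines, all 5 HS lines (6.11 to 10.25), MDAMB435S (9.08), SVCT (7.05) and HCC1187. MMP1, MMP3 and MMP12 were above background together in 6 lines, the 5 HS lines and MDAMB435S.

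The gelatinases degrade denatured collagen and basement membrane. MMP2 ran from 2.93 (EVSAT) through 4.59 to 12.53 (HS362T) and was above background in 21 lines. The other HS lines were between 10.54 and 12.32, and HCC1395 (11.05) and MDAMB157 (10.85) were the highest of the rest, above HS578T. MMP9 covered a narrower range, from 5.08 (BT20) through 5.94 to 8.80 (DU4475), with HCC1395 at 8.68 and SUM149PT at 8.56. The HS lines were spread over most of the MMP9 range, at 5.35 to 8.33.

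Matrilysin, MMP7, an MMP made by epithelial cells, was high in other lines. It ran from 3.01 (MDAMB435S) through 4.20 to 11.52 (HCC38), and HCC70 (10.10), CAL51 (9.94), HCC1954 (9.77) and MDAMB468 (9.71) followed. It was above background in 20 lines, of which HS362T (6.64) was the only HS line. The epilysin gene MMP28, known from keratinocytes, was above background in 14 lines and in no HS line, from 3.18 (MDAMB453) through 4.08 to 9.57 (MCF102A). HCC1937 (9.52), MCF12A (9.31) and HMT3522S1 (9.02) were the next.

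Among the membrane-type MMPs, MMP14, the activator of pro-MMP2, was above background in all lines on the chosen probe set, from 5.59 (OCUBM, at the limit) through 6.97 to 11.31 (HS362T). HS605T and HS739T were both at 11.15, and MCF12A (9.82) was the highest other line, above HS578T at 9.10. MMP15 was ordered the other way, from 7.19 (MDAMB157) through 9.08 to 12.75 (UACC893), with VP267 at 11.21 and SKBR3 at 11.10, and the HS lines lay between 7.23 and 8.12. MMP16 ran from 3.21 (HMT3522S1) through 6.54 to 11.14 (HS605T) and was above background in 32 lines. Its 5 HS lines were between 9.95 and 11.14, and BT549 reached 10.73. MMP24 ran from 6.83 (BT20) through 9.44 to 11.41 (CAL120), with MDAMB231 at 11.29.

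The membrane-type MMPs held by a lipid anchor showed another pattern. MMP25, known from neutrophils, ran from 4.25 (HS739T) through 5.27 to 10.14 (MDAMB361), with MB157 at 9.26 and SUM149PT at 8.19, and its 24 lines above background included no HS line. MMP17 varied little, from 5.62 (SVCT) through 6.32 to 7.28 (UACC893). MMP19, a secreted MMP, was above background in 16 lines and ran from 2.96 (EFM192B) through 3.64 to 10.61 (HS362T). HS579MG (10.07), HS605T (9.91) and HS739T (9.64) followed, then HMT3522T42 at 9.24.

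**Figure D2:**
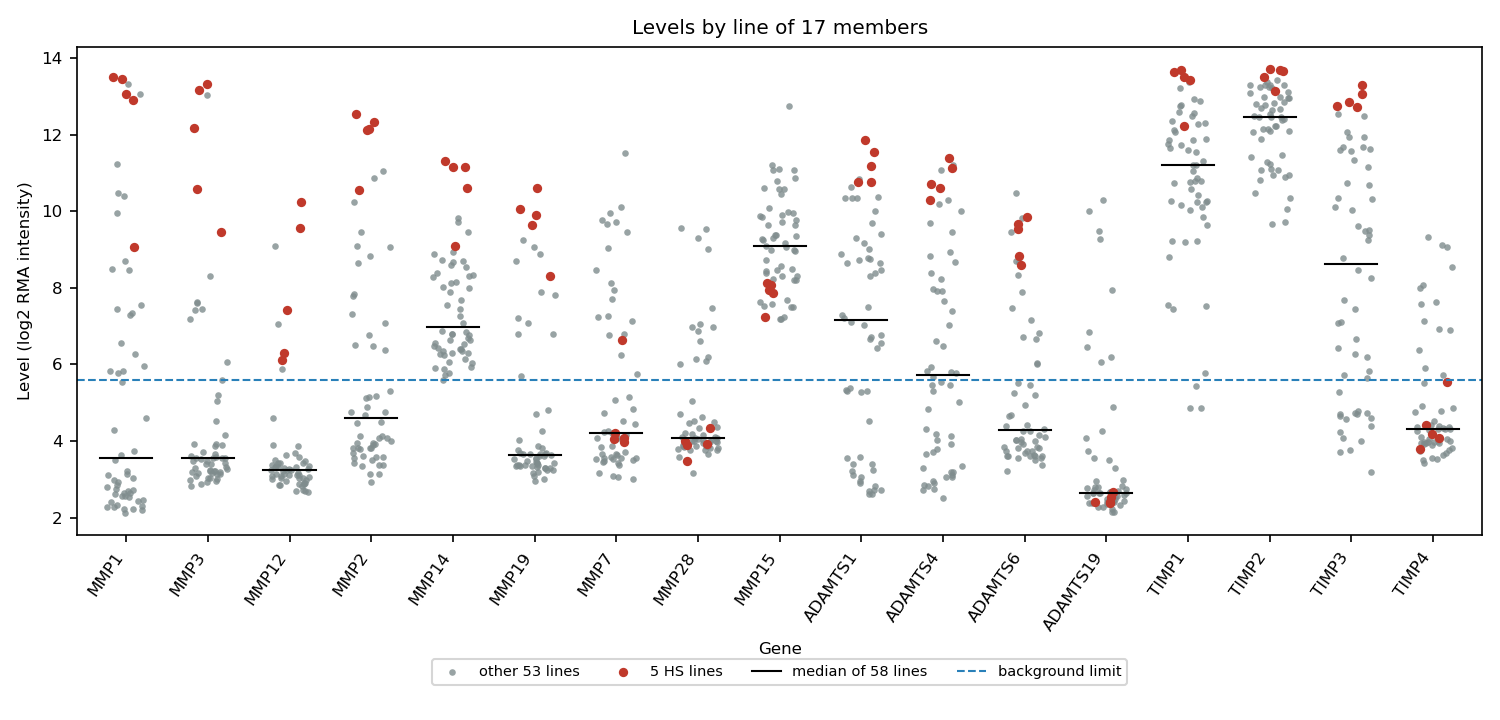
Levels of 17 members (horizontal axis) as log2 RMA intensity (vertical axis), with 1 point per line, the 5 HS lines in red, the other 53 in grey, the median of 58 lines as a bar and the background limit of 5.59 as a dashed line. Red points are at the top for TIMP3, in the upper range for MMP2 and low for MMP15 and MMP28.

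Of the ADAMTS proteases that cleave aggrecan and versican, ADAMTS1 ran from 2.62 (SW527) through 7.16 to 11.85 (HS579MG) and was above background in 36 lines. HS605T was at 11.55 and HS739T at 11.17, and CAL51 (10.84) lay among the HS lines. ADAMTS4 ran from 2.50 (AU565) through 5.72 to 11.39 (HS605T), and HCC1569 (11.20) and BT549 (11.08) reached levels of the HS lines (10.30 to 11.39). ADAMTS5 was above background in 12 lines, all among those of ADAMTS1, and ran from 2.26 (VP267) through 2.75 to 10.91 (HS362T), with MDAMB157 at 9.80. HS605T, at 5.39, was the HS line at background.

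ADAMTS9 ran from 3.22 (T47D) through 4.96 to 11.45 (CAL51), with MDAMB436 at 10.74 and MDAMB231 at 10.19, and 25 lines were above background. ADAMTS15 ran from 3.47 (HS362T) through 6.93 to 11.28 (ZR751), with MT3 at 10.88 and MDAMB231 at 10.84, and 37 lines were above background. ADAMTS8 passed the limit in 4 lines only: DU4475 (8.94), HCC1187 (7.30), CAL51 (7.15) and SW527 (7.14), against a median of 4.18 and a lowest level of 3.66 in HCC1143.

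The procollagen N-proteinases trim new collagen chains. ADAMTS2 ran from 4.35 (VP229) through 5.21 to 8.46 (MDAMB157), with HS362T at 8.21 and HS579MG at 7.99, and all 5 HS lines were among its 14 lines above background. ADAMTS3 ran from 2.70 (DU4475) through 4.77 to 8.85 (M4A4), with NM2C5 at 8.37 and BT549 at 7.88, and none of its 15 lines above background was an HS line. ADAMTS14 stayed between 5.01 (MDAMB361) and 6.18 (SKBR3), with a median of 5.47 and 21 lines past the limit.

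The other ADAMTS genes had a varied placement. ADAMTS6 ran from 3.22 (EVSAT) through 4.29 to 10.48 (BT549), with HS739T at 9.84 and CAL120 at 9.83, and was above background in 19 lines. ADAMTS19 was above background in 9 lines, none of them HS, from 2.13 (FR2) through 2.64 to 10.30 (CAMA1), then MDAMB175VII, SW527 at 9.48 and DU4475 at 9.29. ADAMTS17 was above background in 13 lines, none of them HS, from 2.45 (HS605T) through 3.86 to 8.14 (COLO824), with HCC1187 at 7.75. ADAMTS18 passed in 3 lines, DU4475 (10.64), MDAMB361 (7.45) and VP229 (7.14), against a lowest level of 2.56 (HCC1569) and a median of 2.98. ADAMTS13, which cleaves von Willebrand factor, ran from 5.05 (HCC1806) through 6.06 to 7.75 (EFM192C), with OCUBM at 7.41, and 46 lines were past the limit.

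For several members the probe set chosen by the rule varied less than another of the same gene. Of 20 members with more than 1 probe set, 3 had another with at least 2 times the SD over lines. ADAMTS12, which cleaves cartilage oligomeric matrix protein, had a chosen probe set between 5.01 (MDAMB361) and 6.55 (HS578T), with a median of 5.45 and 16 lines above background. Its most variable probe set ran from 2.92 to 11.12 (HS578T) and was above background in 18 lines. ADAMTS2 reached 11.52 (HS362T) on its most variable probe set, which correlated at r = 0.95 over lines with the chosen one. ADAMTS14 was above background in 1 line, MDAMB435S (5.97), on its most variable probe set. On another it was above background in 13 lines and also highest in MDAMB435S, at 7.42. ADAMTS10 stayed between 5.33 (OCUBM) and 6.25 (HCC1806), median 5.81, with 54 lines past the limit, while its other probe set was above background in 0 lines. Counts of lines above background also moved with the probe set for members whose probe sets kept nearly the same order of lines: MMP14 was above background in 58 lines on the chosen probe set and 28 on the other (r = 0.97), and MMP9 in 50 and 23 (r = 0.95). For some members the chosen probe set was the more variable and had the higher count. These include ADAMTS6 (19 and 0 lines, with the other probe set at 4.72 at most), ADAMTS5 (12 and 4), ADAMTS15 (37 and 8) and ADAMTS17 (13 and 0). They also include MMP28 (14, 5 and 3 lines) and MMP16 (32, 23, 22 and 15). M4A4 was the highest line on the MMP16 probe sets with 22 and 15.

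TIMP1, which inhibits most secreted MMPs, ran from 4.85 (OCUBM) through 11.20 to 13.68 (HS605T). Only OCUBM, EVSAT and HCC1187 were at background, and 4 HS lines, at 13.43 to 13.68, were above every other line, while HS578T was at 12.22. TIMP2, the inhibitor that also takes part in pro-MMP2 activation by MMP14, was above background in all lines on the chosen probe set. There it ran from 9.68 (CAL148) through 12.47 to 13.71 (HS605T). Another TIMP2 probe set was above background in 58 lines and highest in HS739T. The rest were above it in 57 and 52 lines, with M4A4 highest (12.67 and 11.44). TIMP3, bound to the matrix and active on ADAMTS proteases, ran from 3.20 (HCC1187) through 8.61 to 13.28 (HS579MG). It was the only member for which all 5 HS lines (12.73 to 13.28) were above every other line (highest 12.55), and 16 lines were at background. TIMP4 was above background in 14 lines, none of them HS, from 3.42 (HCC1395) through 4.31 to 9.33 (MDAMB436), with VP229 at 9.12 and VP267 at 9.06.

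Differences between units of origin were set against the spread among lines of common origin with limma's moderated F test (Benjamini-Hochberg adjusted p under 0.05 over 14651 genes). Of the 42 members 35 could be tested, those that exceeded the median of the arrays in 3 units or more, so a member silent in most units entered through the units where it is high. Of the 35, 21 passed (10 of 16 MMP, 8 of 15 ADAMTS and 3 of 4 TIMP genes), or 60.0%, beside 41.3% of all genes tested. The median ratio of the SD between units to the SD within them was 1.94 for the tested members and 1.60 for all genes tested. Without any filter 21 of all 42 members passed, beside 31.4% of 19798 genes.

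Of the 21 members, 16 were above background in at least 2 of the 6 shared-origin units that give the error. Among these MMP14 had an SD of 1.53 between units and 0.35 within (limma adjusted p = 0.000626), and ADAMTS4 had 2.90 and 0.85 (limma adjusted p = 0.000841). The others were ADAMTS1, ADAMTS6, ADAMTS9, ADAMTS17, MMP1, MMP7, MMP9, MMP11, MMP15, MMP16, MMP24, MMP28, TIMP1 and TIMP2. Another 4 were above background in 1 shared-origin unit, ADAMTS19 (SD 2.18 and 0.32) in EFM192, MMP19 (2.36 and 0.45) in HMT3522, ADAMTS5 in the MB157 pair and TIMP4 in the VP pair, and ADAMTS8 was above it in 0. For these 5 the spread within units is mostly or wholly that of signal at background, so their p says little beyond the lines in which they are high.

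Several members with a wide range did not pass, since lines of 1 origin also differed in them. MMP2 had an SD of 2.84 between units and 2.42 within (limma adjusted p = 0.194). MMP3 had 2.77 and 2.04 (limma adjusted p = 0.0846), and TIMP3 3.21 and 2.09 (limma adjusted p = 0.0533). MMP13 (1.23 and 1.67), ADAMTS15 (ratio 0.80), ADAMTS3 (1.30 and 1.55) and MMP12 (1.66 and 1.74) varied more within than between units. ADAMTS2, ADAMTS10, ADAMTS12, ADAMTS13, ADAMTS14, MMP17 and MMP25 did not pass either. Leaving out each of the 6 shared-origin units in turn gave 16 to 24 members, lowest without the MDAMB435 lines and highest without MB157 and MDAMB157.

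The lines of common origin show which members changed among close relatives. At a difference of at least 2 log2 units, MB157 and MDAMB157 differed in 15 of the 42 members and the EFM192 lines in 10. The MDAMB435 lines differed in 7 members, the HMT3522 lines in 5, VP229 and VP267 in 3, and AU565 and SKBR3 in 0. The MB157 and EFM192 sets each hold an array among the 3 of widest relative log expression (MB157 and EFM192A, interquartile range 0.63 each). Over the 14651 genes tested, the shares past the same limit were 10.4% for the MB157 pair, 12.5% for EFM192, 6.76% for MDAMB435, 3.97% for HMT3522, 8.68% for the VP pair and 2.82% for AU565 and SKBR3.

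Within the MB157 pair, MMP2 was at 10.85 in MDAMB157 and 3.37 in MB157, and ADAMTS15 at 9.94 and 4.45. TIMP3 was at 9.49 in MDAMB157 and 4.08 in MB157. MMP7 was reversed, at 9.67 in MB157 and 4.74 in MDAMB157. The pair also differed in cell-type markers. MDAMB157 had 7 of 9 fibroblast markers above background (mean 10.18) and 5 of 9 epithelial markers (mean 6.31), while MB157 had 2 (mean 5.14) and 9 (mean 11.50), and CDH1 was at 6.23 and 12.77. The part of these markers in the differences was not tested.

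The widest differences among the MDAMB435 lines were in MMP12, MMP3, ADAMTS3 and MMP1. MDAMB435S had MMP12 at 9.08, MMP3 at 13.03 and MMP1 at 13.05, against 3.02, 7.19 and 8.47 in NM2C5. ADAMTS3 ran the other way, at 8.85 in M4A4 and 4.03 in MDAMB435S. Of 9 fibroblast markers MDAMB435S had 4 above background (mean 6.58), NM2C5 1 (mean 4.51) and M4A4 0 (mean 4.23). Among the EFM192 lines, ADAMTS15 was at 10.82 in EFM192C and 4.37 in EFM192B, while MMP1 was at 8.71 in EFM192A and 2.69 in EFM192C. EFM192A had 6 of 9 fibroblast markers above background (mean 6.82), EFM192B 2 (mean 4.22) and EFM192C 1 (mean 4.09). Each of these lines had 9 epithelial markers above background. The part of the markers in the MDAMB435 and EFM192 differences was not tested. HMT3522T42, a tumour-forming derivative of the HMT3522 series, had MMP2 at 3.42 against 8.83 in HMT3522S1, and MMP1 at 10.47 against 7.29. ADAMTS18 was at 7.14 in VP229 and 3.17 in VP267. Each line is 1 array, so a difference between 2 lines has no replicate check.

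**Figure D3:**
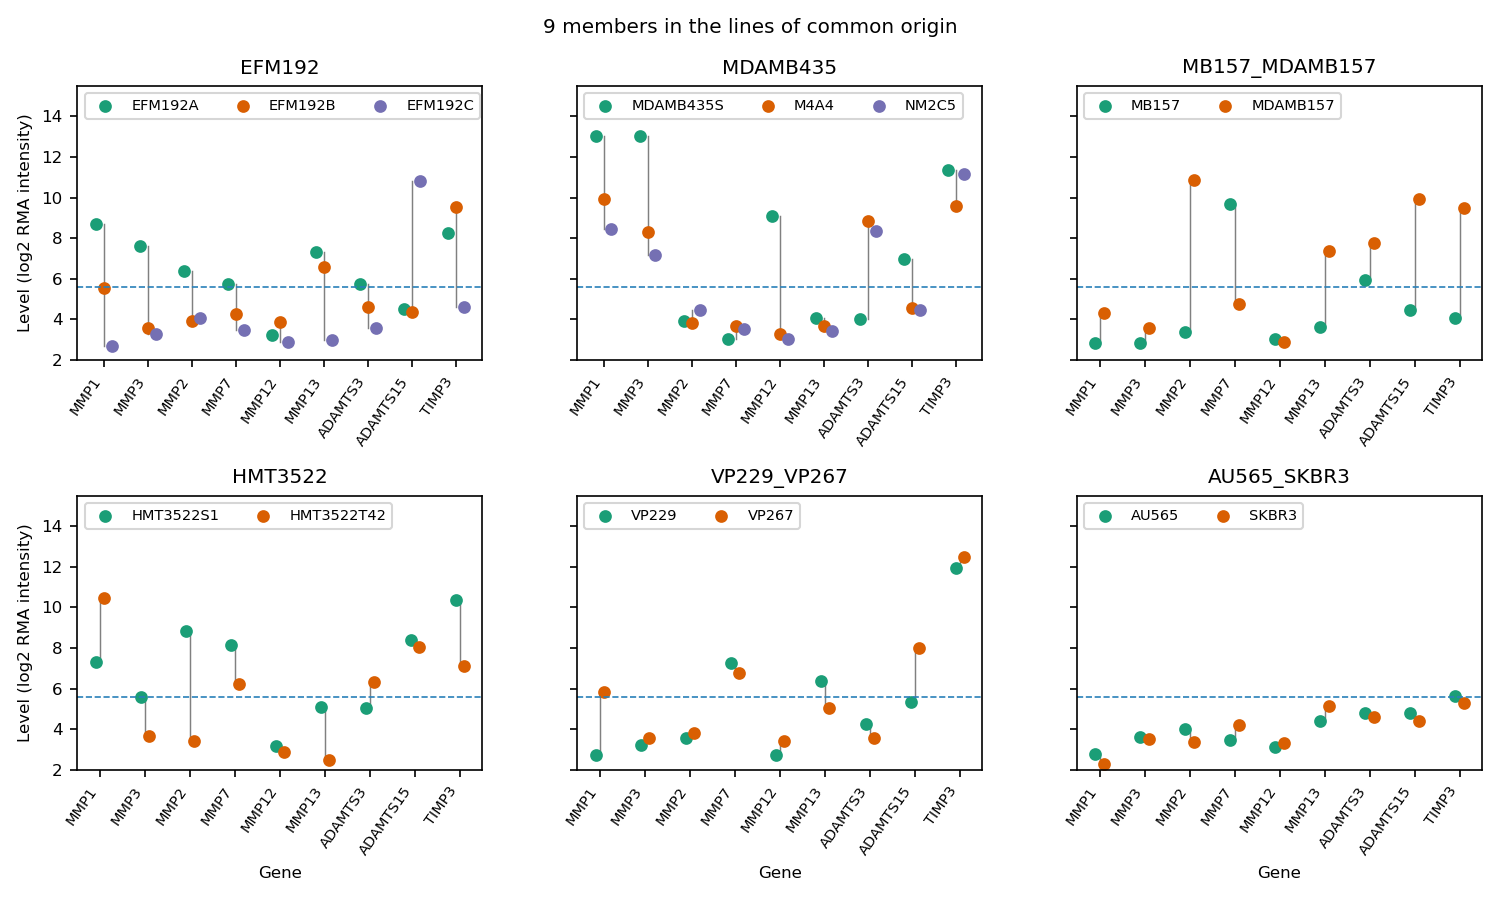
Levels of 9 members (horizontal axis) as log2 RMA intensity (vertical axis) in each of the 6 sets of lines of common origin, with 1 coloured point per line, a grey bar from the lowest to the highest line and the background limit of 5.59 dashed. The bars for MMP2 in the MB157 pair (3.37 to 10.85) and ADAMTS15 in EFM192 (4.37 to 10.82) are long, while AU565 and SKBR3 nearly coincide.

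Each member was then related to the level of 4 genes over the 50 units, with limma slopes in log2 units per log2 unit (Benjamini-Hochberg adjusted p under 0.05 over 14650 genes). Lines of 1 unit were averaged, so a unit can have a level that none of its lines has. The MB157 pair entered with CDH1 at 9.50, from 12.77 in MB157 and 6.23 in MDAMB157. CDH1 marks epithelial adhesion, VIM encodes vimentin of mesenchymal cells, ESR1 is the estrogen receptor, and FOSL1 encodes the AP-1 subunit FRA-1. Each of the 4 fell into a low and a high cluster (21 and 29 units for CDH1, 26 and 24 for VIM, 21 and 29 for ESR1, 16 and 34 for FOSL1), so the cluster entered as a factor and the slopes are those within clusters. For VIM the lower cluster ran from 2.63 to 12.12 and the upper from 12.41 to 13.57. The lower VIM cluster thus also held units with a high VIM level. Units are not randomised.

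Within CDH1 clusters 2 of 35 tested members fell and 0 rose, beside 1.13% of all genes tested that fell and 1.22% that rose. MMP3 fell by 0.87 ± 0.16 (SE, limma adjusted p = 0.00121) per unit of CDH1, and ADAMTS2 by 0.28 ± 0.06 (limma adjusted p = 0.0057). MMP1 (slope -0.83, limma adjusted p = 0.0581) and MMP2 (slope -0.64, limma adjusted p = 0.0557) did not pass. Over the 35 the median slope was -0.14, beside 0.01 over all genes. Without the 5 HS lines 0 of 34 tested members fell by limma (2 at an unadjusted p under 0.05): the slope of MMP3 was -0.41 (limma adjusted p = 0.258) and that of ADAMTS2 -0.14 (limma adjusted p = 0.544). The HS lines held CDH1 between 3.93 and 5.61 and all 9 fibroblast markers.

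Within FOSL1 clusters 2 of 35 tested members rose and 0 fell, beside 1.54% and 2.21% of all genes tested. ADAMTS6 rose by 0.92 ± 0.15 (SE, limma adjusted p = 2e-04) per unit of FOSL1, and MMP1 by 1.04 ± 0.29 (limma adjusted p = 0.0312). Over the 35 the median slope was 0.12, beside -0.0044 over all genes. The calls varied with the setting. With all 58 lines as units the clusters held 28 and 30 lines, and the slopes were 0.30 for ADAMTS6 (limma adjusted p = 0.415) and 0.65 for MMP1 (limma adjusted p = 0.325). With the mean of all probe sets per gene the clusters held 24 and 26 units, the calls on ADAMTS6 (slope 0.57, limma adjusted p = 0.149) and MMP1 (slope 1.31, limma adjusted p = 0.304) ended and ADAMTS3 rose. Without the 3 arrays of widest relative log expression (HS362T, MB157 and EFM192A), the clusters held 21 and 28 units, ADAMTS6 still rose (slope 0.73, limma adjusted p = 0.0403) and MMP1 was just outside (slope 1.20, limma adjusted p = 0.0508). These settings also changed the probe sets, units or arrays, so the part of the cluster boundary was not tested. Both calls stood without the 5 HS lines.

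Within VIM clusters 0 of 35 members passed by limma, beside 0.287% of all genes tested that rose and 0.191% that fell. At an unadjusted p under 0.05 there were 4 members. Within ESR1 clusters 0 of 35 passed by limma, beside 0.594% rising and 0.239% falling in all genes. At an unadjusted p under 0.05 there were 9 members. The shares of all genes at that unadjusted limit were not computed, so the 4 and the 9 have no background. ADAMTS19 had the slope on ESR1 with the smallest p among members, at 0.56 ± 0.17 (SE, limma adjusted p = 0.0816), and MMP25 followed at 0.32 ± 0.10 (limma adjusted p = 0.0855). With all 58 lines as units ADAMTS19 rose with ESR1. ADAMTS1 (-0.58), MMP2 (-0.53), ADAMTS6 (-0.45) and ADAMTS5 (-0.42) had negative slopes that did not pass.

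**Figure D4:**
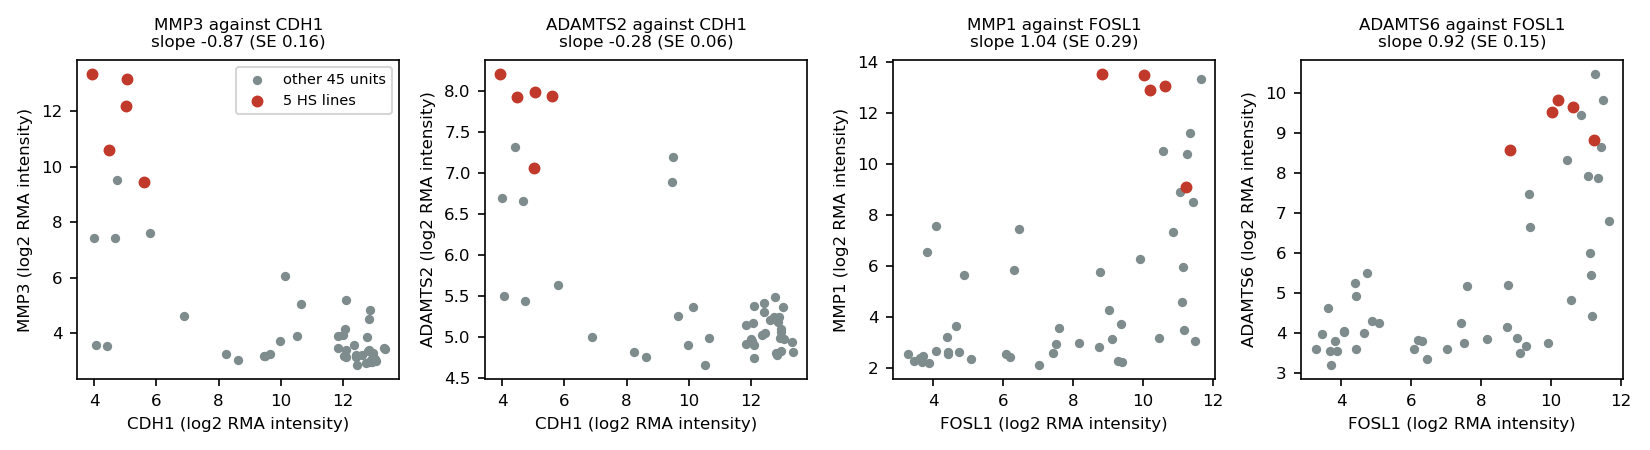
Levels of the 4 member and predictor pairs that passed within clusters, as log2 RMA intensity on both axes, with 1 point per unit of origin (50 in all), the 5 HS lines in red and the other 45 units in grey. MMP3 and ADAMTS2 are highest where CDH1 is low, which is where the HS lines sit, and MMP1 and ADAMTS6 are above 8 mainly where FOSL1 is high.

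Without the cluster factor the slopes also take in the step between the low and the high cluster, and many more genes pass. Of the 35 members 17 fell and 0 rose with CDH1, beside 9.86% and 12.7% of all genes. With VIM 17 rose and 3 fell (ADAMTS17, ADAMTS19 and MMP15), beside 11.9% and 15.2%. With FOSL1 12 rose and 4 fell (ADAMTS13, ADAMTS17, ADAMTS19 and MMP15), beside 13.1% and 17.8%. With ESR1 0 rose and 0 fell by limma, beside 4.48% and 2.27%. At an unadjusted p under 0.05 there were 3 and 11 members, and the shares of all genes at that limit were not computed. All 3 tested TIMPs other than TIMP4 were among the members that fell with CDH1 and rose with VIM and FOSL1, and TIMP4 rose with FOSL1. These counts do not tell a graded relation from a step.

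Genes around the proteases were taken from lists of the pathway. Only the main fit was read for them, so whether their calls depend on the settings, as those of members did, was not tested. With FOSL1 1.54% of all genes tested rose and 2.21% fell. With FOSL1, 3 of 11 tested activators and receptors rose, PLAT (slope 1.05, limma adjusted p = 0.00388) and PLAU (0.76, limma adjusted p = 0.00719), the plasminogen activators, and the urokinase receptor gene PLAUR. Of 9 tested inducers of MMP genes 5 rose with FOSL1, first CXCL8 (0.87, limma adjusted p = 0.00388) and HBEGF (0.58, limma adjusted p = 0.00461), then IL6, IL1B and IL1A. Of 11 tested ADAM proteases 2 rose with FOSL1, ADAM19 (0.87, limma adjusted p = 0.00827) and ADAM12 (0.73, limma adjusted p = 0.0456). Of 7 tested transcription factors of epithelial-mesenchymal transition 3 rose, SNAI2 (0.83, limma adjusted p = 0.00719) and ZEB1 (0.94, limma adjusted p = 0.0259) and also ZEB2.

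Of 17 tested matrix substrates 2 rose with FOSL1, FBN1 (0.87) and COL4A2 (0.56). Of 8 tested other inhibitors the protease nexin gene SERPINE2 rose (0.73) and SPINT1 fell (slope -0.68). Of 9 other AP-1 genes tested 0 rose and BATF fell (slope -0.50, limma adjusted p = 0.0421). None of the 5 ADAMTS-like genes passed with FOSL1.

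With CDH1 1.22% of all genes tested rose and 1.13% fell. In the lists, the inhibitors of membrane serine proteases SPINT2 (0.84, limma adjusted p = 3.06e-06) and SPINT1 (0.50, limma adjusted p = 0.0287) rose with CDH1, as did the matriptase gene ST14 (0.51, limma adjusted p = 0.0362). RECK, a membrane-anchored MMP inhibitor, fell (slope -0.56, limma adjusted p = 0.026), as did PLAUR (slope -0.41). Of the ADAM proteases 3 of 11 fell, ADAM12 (slope -0.86, limma adjusted p = 0.00433), ADAM33 (slope -0.37) and ADAM23. Of the transition factors 3 of 7 fell, ZEB2 (slope -0.37, limma adjusted p = 0.00215), TWIST2 (slope -0.73) and PRRX1. ADAMTSL1 (slope -0.39) and the substrate gene COL5A1 (slope -0.74) also fell. The list genes were not fitted again without the 5 HS lines, and without those lines 0 members fell with CDH1. With VIM only SERPINE2 passed among these lists (0.55, limma adjusted p = 0.0133), and with ESR1 none did.

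Likeness between members is given as a description over the 50 units, which share the array platform and the HS lines. Of 595 pairs of tested members, 12 had a Spearman rho of at least 0.6 and the median rho was 0.08. Without the 5 HS lines 2 pairs were left. ADAMTS6 and TIMP1, whose promoters are printed above, had the highest rho (0.76, r = 0.61, and rho 0.69 without the HS lines). By r the order differs, with ADAMTS2 and ADAMTS5, ADAMTS6 and MMP19, and MMP1 and MMP3 highest (r = 0.80 each). MMP2 and its activator MMP14 followed by rho (rho 0.71, r = 0.76, and rho 0.62 without the HS lines), then MMP14 and TIMP2 (rho 0.69, r = 0.66, and rho 0.59 without them). ADAMTS5 and MMP2 had rho 0.64 and r = 0.78. The lowest rho was that of ADAMTS6 and MMP15 (-0.59), then MMP15 and TIMP1 (rho -0.56).

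MMP1, MMP3, MMP7, MMP12 and MMP13 are neighbours in the MMP gene cluster of chromosome 11. MMP1 and MMP3 had rho 0.65 (r = 0.80, and rho 0.53 without the HS lines). MMP3 and MMP12 had rho 0.48, falling to 0.30 without the HS lines, and MMP1 and MMP12 had 0.42, falling to 0.22. MMP7 was apart, with rho 0.22 to MMP1, 0.05 to MMP3 and -0.24 to MMP12. ADAMTS1 and ADAMTS5, also neighbouring genes, had rho 0.57 (0.44 without the HS lines), and ADAMTS8 and ADAMTS15 had rho 0.02.

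For the 5 members with the largest SD over units, the detected genes most like each were named by Spearman rho over the 50 units. MMP1 was most like CXCL8 (rho 0.74), LINC-PINT (0.73) and SERPINE2 (0.73). TIMP3 was most like CLIP4 (0.78), LARP6 (0.71) and SPARC (0.70). ADAMTS1 was most like COL3A1 (0.69), MAGI2-AS3 (0.66) and LRP1 (0.66). MMP2 was most like GLIPR1 (0.78), FBN1 (0.76) and BICC1 (0.75). ADAMTS4 had lower values, with SMAD4 (0.63, but r = 0.24), SYNC (0.62) and DDR2 (0.61). Of these 15 pairs the lowest rho without the HS lines was 0.48, for ADAMTS4 and DDR2.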

How the data were processed

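Per the labels' protocols, growth followed the vendor's advice, and total RNA was amplified with a NuGEN protocol, labelled with biotin and hybridised to 1 array per line. Values were deposited on a log2 scale, computed by the authors with RMA in Affymetrix Power Tools, per the submitters' processing notes, without stated versions; whether all arrays were normalized together is not given in the sources used here. Of 52377 probe sets 35184 named 1 gene and were used. Where a gene had several, the probe set of highest mean level stood for it.

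Genes that exceeded the array median in 3 units or more were tested in R 4.3.3 with limma 3.58.1 (trend and robust, Benjamini-Hochberg). Predictor levels were split into clusters with mclust 6.1.1 where a second component raised the BIC by over 10 and Ashman's D passed 2. On simulated data for 14651 genes, slopes of 0.5 were recovered for 86 of 100 genes for CDH1, 94 for VIM, 92 for ESR1 and 75 for FOSL1, and slopes of 0.25 for 62, 74, 63 and 54. A between-unit SD of 4 times the SD within was recovered for 95 of 100 genes. Recovery was not tested for the members alone, nor at a ratio of 1.94, the median of the tested members. Among member slopes above 0.5 in size, those of MMP3 on CDH1 and of ADAMTS6 and MMP1 on FOSL1 passed. Others did not, such as ADAMTS4 on CDH1 (slope -0.68, limma adjusted p = 0.089) and TIMP3 on FOSL1 (slope 0.75, limma adjusted p = 0.0792).

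All members above background in at least 3 lines were named, with every member that passed a fit. Of the pathway lists, up to 2 genes with the smallest adjusted p in each direction of a fit were named with values, and for the 5 members of largest SD the 3 most alike genes. The members and lists were chosen with earlier results of these data known. Alternatives changed the probe set, filter, normalization, lines, cluster factor, units and background limit. The most variable probe set was added after seeing the data. The number of arrays, 1 per line, limits the precision.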

Additional observations from a re-analysis of the deposited data

How the results depend on the processing

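With 1 array per line, only the 14 lines of common origin give an error estimate, and a member that differs among them, such as MMP2, passes the F test less easily. Levels near 5.59 cannot be told from background. The count of 21 members that differed between units was 16 to 24 over all alternatives. The members associated with a predictor were more open to the settings. Without the cluster factor, 17 members fell with CDH1, 17 rose and 3 fell with VIM, and 12 rose and 4 fell with FOSL1, since the step between clusters then counts. The members that rose with FOSL1 numbered 1 with the mean of probe sets, 1 without the 3 widest arrays and 0 with all 58 lines as units. In these 3 alternatives the cluster boundary of FOSL1 also moved (its part was not tested), from 16 and 34 units to 24 and 26, 21 and 28, and 28 and 30. Without the 5 HS lines, 0 members fell with CDH1 and 2 pairs of members had a rho of at least 0.6. With all 58 lines as units, 1 member (ADAMTS19) rose with ESR1. With the most variable probe set of each member, 22 members differed between units, MMP2 joined those that fell with CDH1 and ADAMTS12 those that rose with FOSL1. With the limit at the 99th percentile of viral signal (6.50), 3 members were above background in all lines and 7 in none. The slopes that passed in the main fit kept their direction in every alternative. Other slopes did not all keep it. Without the cluster factor the slope on CDH1 went from 0.03 to -0.13 for MMP24 and from 0.04 to -0.24 for ADAMTS9. Both are among the 17 members that then fell. The slope of MMP7 on FOSL1 went from -0.48 to 0.13.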
